A study of Mus musculus with 16 samples.

Results

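UN-RG-TU pups were compared with NN-Veh pups, that is, undernourished and treated pups with control pups that had received neither intervention. The question was which genes of epididymal adipose tissue had not returned to the NN-Veh level after treatment, and which had moved past it. The comparison used 8 of the 16 arrays of the series, 4 per group, and was defined by the group labels alone. UN-RG-TU pups were male C57Bl/6 NCrSlc offspring of dams kept at 60% of the energy intake of control dams in late pregnancy (UN), nursed in litters of 4 so that they grew rapidly in infancy (RG). They received tauroursodeoxycholic acid (TUDCA, abbreviated TU) by mouth at 0.5 g/kg per day from 11 to 16.5 wks. NN-Veh pups were males of the same strain from freely fed dams (NN), nursed in litters of 8 and given the water vehicle (Veh). Both groups, and the UN-RG-Veh and NN-TU pups whose values are set beside them, were fed from 9 wks on a diet of 60% lipid, so that NN-Veh is the level of an obese control and not of a lean animal. Maternal restriction and rapid growth always came together, and UN-RG-TU differs from NN-Veh in both of these and in TU, so that their shares in a difference cannot be told apart from these 2 groups. Each array held the RNA of 1 pup. The litters of the pups are not given, and the p-values measure the spread between these samples.

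TUDCA is a bile acid that helps proteins fold and is used in mice to relieve stress of the endoplasmic reticulum. In obesity, epididymal fat takes up monocytes that are drawn in by chemokines such as Ccl2 and become macrophages, and the macrophages that reside there multiply in place. Fat also remodels its collagen scaffold, and its adipocytes take up glucose, synthesise fatty acids and secrete adipokines. The tissue measured is a mixture of all these cells, and in RNA of a whole tissue fewer cells of a type and less RNA per cell cannot be told apart.

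The arrays read 22206 transcript clusters, each close to 1 gene, and levels are given as the log2 of the normalised intensity. The log2 median of an array lay between 6.997 and 7.16, and arrays within a group correlated at 0.977 to 0.995. The 16 measured adipocyte genes had a mean level of 16.03 to 16.36 on the NN-Veh arrays and 16.23 to 16.45 on the UN-RG-TU arrays, and Adipoq, the adipocyte hormone adiponectin, read 18.2 to 18.4 on all 8. Replicate 2 of NN-Veh and replicate 14 of UN-RG-TU carried transcripts of motile cilia, with a mean over 20 such genes of 8.20 and 7.19 against 5.60 to 5.91 on the other 6 arrays. The markers of epididymal epithelium stayed between 5.002 and 5.27 on all 8 arrays, and 14 of the 15 measured were at or below the median of the antigenomic control probes (6.61). Testis and germ cell markers averaged 7.19 on replicate 3 of NN-Veh and 5.16 to 5.92 on the other 7 arrays. Their part in the results was not tested. Values without the 4 cilia arrays (these 2 and 1 in each other group) are given for some of the results that they alter. Of the 90 named genes past the thresholds described below, 20 were lost without the cilia arrays, and not all of these are marked.

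No transcript cluster passed an adjusted p of 0.05 between UN-RG-TU and NN-Veh in limma (0.0% of 22206, smallest adjusted p 0.679), and 1361 had an unadjusted p under 0.05. By a test of the kind the study used (the methods' t-test), there were 1114 clusters at an unadjusted p under 0.05 and 0 after Benjamini-Hochberg adjustment. Genes are therefore described by the thresholds of the study's methods, an unadjusted p under 0.05 together with a linear fold change of at least 1.3, and "higher", "lower" and "changed" refer to these thresholds. By them, 467 clusters were higher in UN-RG-TU (2.1% of all tested) and 447 lower (2.01%), while the median log2 fold change over all clusters was 0.01. Without the cilia arrays the counts were 810 higher and 758 lower, without replicate 14 of UN-RG-TU 1117 and 721, without its replicate 16 731 and 740, and without its replicate 13 327 and 274. The 4 UN-RG-TU arrays lay above all 4 NN-Veh arrays for 330 clusters (1.49%) and below them for 353 (1.59%). Adjusted p-values of the changed genes named below lay between 0.679 and 0.81 in limma. Values of single arrays are listed in the order of the replicates, 1 to 4 for NN-Veh and 13 to 16 for UN-RG-TU.

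Genes of the cell cycle were lower in UN-RG-TU than in NN-Veh. Of 19 measured genes of mitosis and DNA replication, 11 were lower (2.01% of all clusters were) and 0 higher. The median log2 fold change was −0.62, with 18 values below 0. The mean level of the 19 genes was 8.46, 8.37, 8.07 and 8.21 on the NN-Veh arrays and 7.25, 8.05, 7.61 and 7.78 on the UN-RG-TU arrays. Every UN-RG-TU array was thus below every NN-Veh array, with replicate 14 just under the lowest of them. For 5 single genes, the groups did not overlap.

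Kif11, the motor that pushes the poles of the mitotic spindle apart, read 9.69, 9.45, 8.81 and 8.98 in NN-Veh and 7.87, 8.66, 7.80 and 8.39 in UN-RG-TU. Its log2 fold change was −1.05 (SE 0.29, 95% interval −1.67 to −0.44), or 2.08-fold lower, with no overlap. Top2a, which untangles DNA before chromosomes separate, read 9.04, 8.47, 8.10 and 8.56 in NN-Veh and 7.49, 7.79, 7.88 and 7.55 in UN-RG-TU, a log2 fold change of −0.87 (SE 0.21). All 4 treated pups were below the lowest NN-Veh pup for this gene as well. Ccnb2, a cyclin of entry into mitosis, was lower by a log2 fold change of −0.91 (SE 0.29) and Ube2c, which helps the anaphase-promoting complex mark cyclins for breakdown, by −0.79 (SE 0.24). Mki67, which encodes the proliferation antigen Ki-67, was lower by −0.94 (SE 0.34), with replicate 14 (11.33) inside the NN-Veh range of 11.30 to 12.18. Aurka, a kinase of the centrosomes, had a log2 fold change of 0.00 (95% interval −0.42 to 0.43), and Birc5, a member of the chromosomal passenger complex, of −0.12 (−0.42 to 0.19).

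Of the named genes outside that list, 7 with roles on chromosomes or DNA are given here, grouped after their values were seen. Nuf2, a part of the kinetochore, read 9.54, 9.72, 8.90 and 9.14 in NN-Veh and 7.12, 8.65, 8.07 and 8.23 in UN-RG-TU, a log2 fold change of −1.31 (SE 0.32). Ncapg, a subunit of condensin I, had a log2 fold change of −0.91 (SE 0.22), Mcm3, a subunit of the replicative helicase, of −0.84 (SE 0.21), and Neil3, a DNA glycosylase of dividing cells, of −0.93 (SE 0.30). Histone genes H3c8 and H1f1 differed by −0.89 (SE 0.24) and −0.87 (SE 0.25), although probes for H3c8 may also read other H3 genes of near-identical sequence. Ezh2, the methyltransferase of polycomb complex 2, was lower by a smaller amount (log2 fold change −0.44, SE 0.11) and without overlap. For each of these 7 genes, all 4 UN-RG-TU arrays were below every NN-Veh array. For all but Ezh2 this was fixed in advance, because they were named by a rule that asks for no overlap. Of the other named genes of DNA methylation, Uhrf1 was lower by −0.43 (SE 0.19) and Tet3 higher by 0.43 (SE 0.16), both with overlap.

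**Figure D1:**
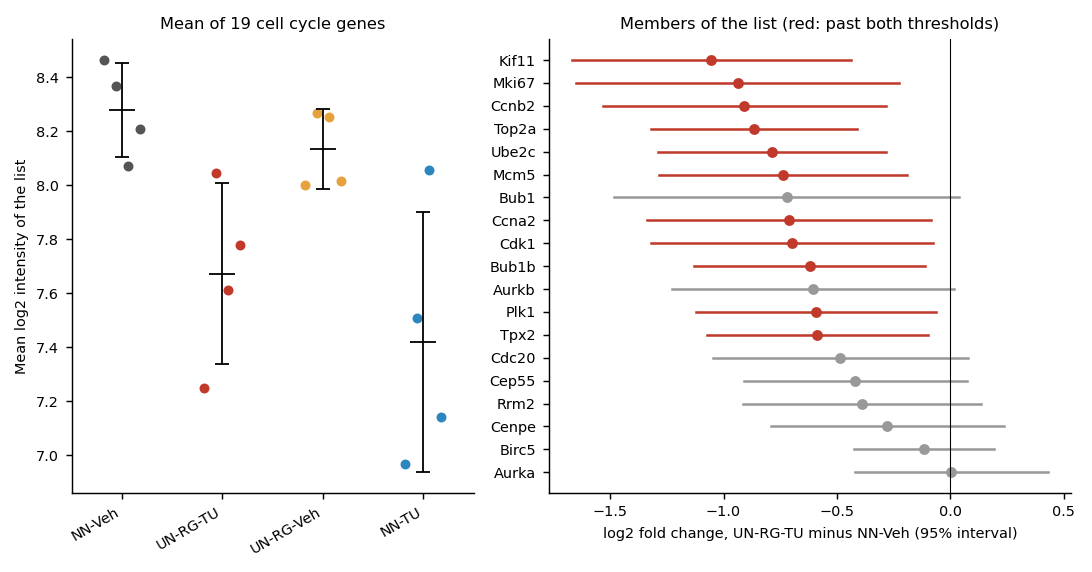
Left, mean log2 intensity of the 19 measured cell cycle genes on each array (points), with the mean and SD of each group of 4 (bars). Right, log2 fold change of each gene between UN-RG-TU and NN-Veh with its 95% interval, in red for the 11 genes past both thresholds; 18 of the 19 values lie below 0.

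Promoters of 17 of the 20 genes listed were found in RefSeq (GRCm38.p6), and 150 bases before the start of each were searched. The CCAAT box, in either orientation (CCAAT or ATTGG), is a known feature of promoters of mitotic genes, as is the cell cycle homology region, searched here as TTTGAA or TTCAAA, and neither motif overlaps the other. CCAAT was found in 15 of the 17 promoters and in 9 of the 9 that belong to genes lower in UN-RG-TU, against 24.5% of 32851 promoters. TTTGAA was found in 7 of the 17 and in 5 of these 9, against 9.07% of all. A match describes the letters in the window and not a bound site. The sequences of 4 lower genes are printed 5′ to 3′, with both motifs in capitals, because they show CCAAT in all 4 and TTTGAA in the first 3: Top2a on the minus strand at chr11:99024190-99024339, Kif11 on the plus strand at chr19:37376232-37376381, Ube2c on the plus strand at chr2:164769779-164769928 and Ccnb2, with 3 CCAAT boxes and no TTTGAA, on the minus strand at chr9:70421555-70421704.
Top2a: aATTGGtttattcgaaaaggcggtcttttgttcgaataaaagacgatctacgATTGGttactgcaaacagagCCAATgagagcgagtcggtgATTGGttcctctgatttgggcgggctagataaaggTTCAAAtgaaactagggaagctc
Kif11: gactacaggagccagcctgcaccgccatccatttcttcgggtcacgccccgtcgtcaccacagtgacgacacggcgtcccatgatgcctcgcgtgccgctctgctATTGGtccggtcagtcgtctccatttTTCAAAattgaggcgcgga
Ube2c: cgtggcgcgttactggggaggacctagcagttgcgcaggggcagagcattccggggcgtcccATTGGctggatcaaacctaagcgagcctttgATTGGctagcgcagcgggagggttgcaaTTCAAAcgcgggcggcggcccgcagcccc
Ccnb2: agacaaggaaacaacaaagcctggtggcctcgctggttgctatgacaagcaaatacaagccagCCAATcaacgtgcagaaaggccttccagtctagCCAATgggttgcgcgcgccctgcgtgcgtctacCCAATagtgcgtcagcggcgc

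The cell cycle genes were not past the thresholds in UN-RG-Veh, where 0 of the 19 were higher or lower than in NN-Veh (2.46% and 1.99% of all clusters were) and the mean level was 8.13 ± 0.15 (SD, n = 4), against 8.28 ± 0.17 in NN-Veh and 7.67 ± 0.33 in UN-RG-TU. In NN-TU, 16 of the 19 were lower than in NN-Veh (1.93% of all clusters were), with a mean level of 7.42 ± 0.48. Both of these comparisons share the NN-Veh arrays with the one described here. Between UN-RG-TU and NN-TU directly, 1 of the 19 was higher and 0 lower, where 1.16% of all clusters were higher and 0.675% lower. Without replicate 13 of UN-RG-TU, 5 of the 19 were lower than in NN-Veh, without replicate 2 of NN-Veh 7 and without the cilia arrays 14. Among cell markers, those of macrophages averaged 11.85 to 12.39 in NN-Veh and 11.66 to 12.33 in UN-RG-TU, and those of stromal progenitors 10.09 to 10.20 and 9.85 to 10.34, and their part in the difference was not tested.

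Some chemokines were lower in UN-RG-TU. Of 24 measured chemokines, 6 were lower (2.01% of all clusters were) and 0 higher, while the median of the list was −0.13. Ccl7 read 11.69, 12.19, 11.22 and 10.85 in NN-Veh and 9.29, 9.36, 10.11 and 10.24 in UN-RG-TU, which is 3.33-fold lower (log2 fold change −1.74, SE 0.53). Ccl2 read 12.74, 12.85, 11.92 and 12.30 in NN-Veh and 10.46, 10.98, 10.81 and 11.47 in UN-RG-TU, or 2.87-fold lower (log2 fold change −1.52, SE 0.57). Both are ligands of the monocyte receptor Ccr2, and for both every UN-RG-TU pup was below every NN-Veh pup. Cxcl10, an attractant of T cells induced by interferons, read 7.74, 7.97, 8.03 and 7.66 in NN-Veh and 7.12, 7.52, 7.37 and 7.25 in UN-RG-TU, again with no overlap (log2 fold change −0.53, SE 0.17).

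Ccl8 had a log2 fold change of −1.36 (SE 0.45), but its groups overlapped because replicate 1 of NN-Veh (10.21) was below 3 of the 4 treated pups. Cxcl12, a stromal chemokine that retains leukocytes, differed by −0.72 (SE 0.28), and Cxcl1, an attractant of neutrophils, by −0.51 (SE 0.23). Ccl3, Ccl4 and Ccl5, which many leukocytes secrete, had log2 fold changes of −0.14 (95% interval −0.95 to 0.68), 0.23 (−0.27 to 0.73) and 0.19 (−0.33 to 0.71). In UN-RG-Veh, Ccl2 and Ccl7 had spread widely, from 10.33 to 13.24 and from 9.72 to 11.91, and were not past the thresholds. In NN-TU, 7 chemokines were lower than in NN-Veh (1.93% of all clusters were). The means there were 10.87 for Ccl2 and 9.78 for Ccl7, beside 10.93 and 9.75 in UN-RG-TU. Chemokine counts were 4 without the cilia arrays and 3 by the methods' t-test.

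Il1r1, the signalling receptor of interleukin-1, was among the genes with the smallest p. It read 11.97, 12.64, 12.22 and 11.95 in NN-Veh and 11.20, 11.60, 11.04 and 11.43 in UN-RG-TU, a log2 fold change of −0.88 (SE 0.17, 95% interval −1.24 to −0.52). The groups did not overlap, which the rule that named this gene asks for. Rara, the retinoic acid receptor alpha, chosen here after its values were seen because its p was the smallest, read 10.93, 11.27, 11.26 and 11.20 in NN-Veh and 10.10, 10.27, 10.44 and 10.69 in UN-RG-TU (log2 fold change −0.79, SE 0.14). Adjusted p was 0.679 for both in limma. Il1r1 and Rara were lower than in NN-Veh in UN-RG-Veh as well (−0.41 and −0.39) and in NN-TU (−0.75 and −0.46). Both are thus among the clusters counted below as not returned and lower. Casp4, the protease that senses bacterial lipopolysaccharide inside cells, was also lower without overlap, with a log2 fold change of −0.57 (SE 0.17). Its value was −0.56 in NN-TU, where it was lower too, and 0.07 in UN-RG-Veh. Il1b, the cytokine that binds Il1r1, had a log2 fold change of −0.39 (95% interval −0.84 to 0.06), Tnf of −0.32 (−1.06 to 0.43) and Il6 of −0.06 (−0.59 to 0.48). Of 18 measured cytokines, 0 were past the thresholds in either direction.

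**Figure D2:**
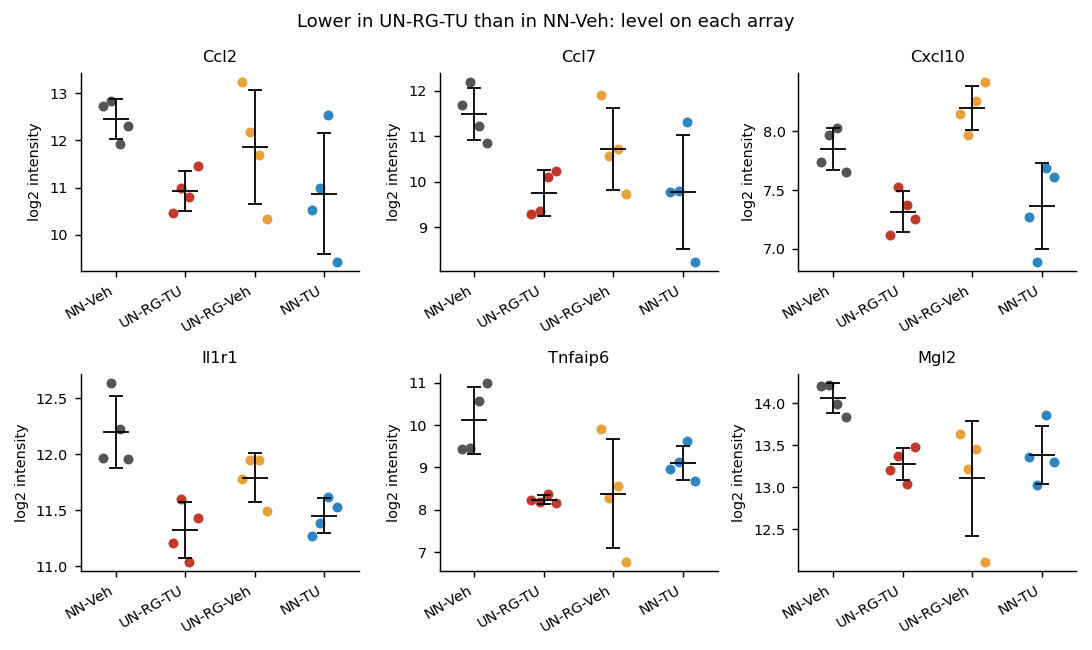
Log2 intensity of 6 genes lower in UN-RG-TU than in NN-Veh on each of the 16 arrays (points), with the mean and SD of each group of 4 (bars). In all 6 panels the UN-RG-TU points lie below the NN-Veh points, which for Il1r1 the rule that named it asks for.

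Markers of resident macrophages were lower in part, and most general macrophage markers were not past the thresholds. Of 13 resident macrophage genes, 5 were lower (2.01% of all clusters were) and 0 higher, with a median log2 fold change of −0.38. For 5 the UN-RG-TU arrays lay below all NN-Veh arrays (1.59% of all clusters did). In UN-RG-Veh 4 of the 13 were lower than in NN-Veh and in NN-TU 3, with a median of −0.37 in each. The mean level was 12.26 in NN-Veh, 11.95 in UN-RG-TU, 11.80 in UN-RG-Veh and 11.94 in NN-TU. Mgl2, a galactose-binding lectin of alternatively activated macrophages, read 14.21, 14.22, 13.99 and 13.84 in NN-Veh and 13.21, 13.38, 13.04 and 13.48 in UN-RG-TU, which is 1.73-fold lower (log2 fold change −0.79, SE 0.26). Its neighbouring lectin Clec10a read 12.86, 12.95, 12.80 and 12.82 in NN-Veh and 12.18, 12.50, 12.54 and 12.43 in UN-RG-TU (log2 fold change −0.44, SE 0.17). The treated pups were all lower for both lectins. Cbr2, a carbonyl reductase of resident macrophages, had a log2 fold change of −0.54 (SE 0.19), F13a1, the A chain of coagulation factor XIII, of −0.52 (SE 0.23), and Folr2, a folate receptor, of −0.43 (SE 0.20).

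Lyve1, which binds hyaluronan on lymphatic endothelium and on resident macrophages, read 12.68, 12.94, 12.73 and 12.73 in NN-Veh and 12.34, 12.42, 12.17 and 12.63 in UN-RG-TU. The groups did not overlap, yet the log2 fold change of −0.38 (95% interval −0.76 to 0.01) did not reach the p threshold, and the mean in UN-RG-Veh was 11.28. Timd4, a marker of long-lived resident macrophages, had a log2 fold change of 0.29 (−0.04 to 0.62). Of 15 general macrophage markers, 2 were lower, C1qc (log2 fold change −0.54, SE 0.15) and C1qb (−0.60, SE 0.17), both chains of complement C1q, and Adgre1, which encodes F4/80, was at −0.00 (−0.70 to 0.69). Of 7 monocyte markers, 2 were lower (2.01% of all clusters were) and all 7 had a log2 fold change below 0. With arrays centred on their median, and likewise after quantile normalisation, 3 of the 13 resident macrophage genes were lower, and the same count was found without any 1 of replicates 3 and 4 of NN-Veh and 14 and 15 of UN-RG-TU.

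Matrix genes were lower in part. Of 24 measured collagen and matrix genes, 5 were lower (2.01% of all clusters were) and 0 higher, with a median of −0.33 and 21 values below 0. Col4a1, a chain of basement membrane collagen IV, read 11.50, 11.79, 11.64 and 11.56 in NN-Veh and 10.002, 11.38, 10.71 and 11.19 in UN-RG-TU (log2 fold change −0.80, SE 0.22). Col6a3, a chain of collagen VI, which surrounds adipocytes, read 12.79, 13.09, 12.65 and 12.43 in NN-Veh and 11.78, 11.998, 12.35 and 12.24 in UN-RG-TU (−0.65, SE 0.22). Neither gene overlapped between groups. Col6a1 differed by −0.63 (SE 0.23), Col3a1 by −0.53 (SE 0.24) and Col5a3 by −0.51 (SE 0.18), while Col1a1, the main chain of collagen I, had a log2 fold change of −0.37 (95% interval −1.07 to 0.32). In UN-RG-Veh, 5 genes of the list were lower than in NN-Veh and 1 higher (1.99% and 2.46% of all clusters were). In NN-TU 6 were lower (1.93% of all clusters were). The number lower in UN-RG-TU was 9 without the cilia arrays, 9 without replicate 14 of UN-RG-TU, 8 without its replicate 16, 3 without its replicate 13 and 3 by the methods' t-test.

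The largest fall without overlap was that of Tnfaip6, a secreted hyaluronan-binding protein that is induced in inflammation. It read 9.44, 9.47, 10.56 and 11.01 in NN-Veh and 8.24, 8.18, 8.38 and 8.17 in UN-RG-TU, which is 3.67-fold lower (log2 fold change −1.88, SE 0.49, 95% interval −2.91 to −0.85). The treated pups were close together (SD 0.10) and the NN-Veh pups far apart (SD 0.79). The mean in UN-RG-Veh was 8.38 ± 1.29 (SD, n = 4).

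Few genes of the adipocyte lists were higher in UN-RG-TU, and the 4 described first each lost the call when 1 array was left out. Nnat, an imprinted gene that encodes neuronatin, a protein of the endoplasmic reticulum, read 15.52, 13.77, 15.27 and 15.66 in NN-Veh and 16.37, 15.87, 16.06 and 16.32 in UN-RG-TU (log2 fold change 1.10, SE 0.42). All treated pups were higher, but replicate 2 of NN-Veh, a cilia array, was far below the rest, and without it the log2 fold change was 0.67 and not past the thresholds. Pck1, the enzyme of glyceroneogenesis, had a log2 fold change of 1.26 (SE 0.49, 95% interval 0.22 to 2.31) with overlapping groups, and without that array it was 0.91, again not past. The carboxylesterases Ces1f and Ces1d, lipases of adipocytes and liver, differed by 1.36 (SE 0.56) and 0.95 (SE 0.44). Their groups overlapped, since replicates 13 and 15 were far above replicates 14 and 16, and without replicate 13 the values fell to 1.17 and 0.67 and were not past. In NN-TU all 4 genes were higher than in NN-Veh too, Nnat by 1.03, Pck1 by 1.385, Ces1f by 2.01 and Ces1d by 1.27.

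Slc43a1, a transporter of large neutral amino acids, and Vnn1, which splits pantetheine, were higher under every alternative they were tested in, Vnn1 being too dim for the filter on dim clusters. Slc43a1 read 8.46, 8.57, 8.96 and 8.50 in NN-Veh and 9.71, 8.96, 9.35 and 9.56 in UN-RG-TU (log2 fold change 0.77, SE 0.21). Vnn1 read 5.65, 5.44, 5.42 and 5.62 in NN-Veh and 6.47, 6.30, 6.18 and 6.27 in UN-RG-TU (0.77, SE 0.21), a low signal, with 34.4% of the antigenomic control readings below it. For both genes the groups were separate, which the rule that named them asks for. Their means in NN-TU, 9.58 and 6.42, were at least as high as in UN-RG-TU. Irs1, the docking protein of the insulin receptor, was higher by 0.52 (SE 0.21) in UN-RG-TU and by 0.64 in NN-TU. In UN-RG-TU it was the only one of 14 genes of insulin signalling past the thresholds. Of 16 adipocyte identity genes, Pck1 alone was past them.

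Mesothelial genes formed a group of higher genes, with 4 of 14 higher (2.1% of all clusters were), 0 lower and a median log2 fold change of 0.51. Krt7, a keratin of simple epithelia, read 7.02, 7.53, 7.53 and 7.97 in NN-Veh and 7.83, 8.32, 9.14 and 8.45 in UN-RG-TU (0.92, SE 0.27). Only replicate 13 of the treated pups was below the highest NN-Veh pup. Wt1, a transcription factor of mesothelium and visceral fat progenitors, read 4.91, 4.95, 5.20 and 5.23 in NN-Veh and 5.70, 5.64, 6.13 and 5.54 in UN-RG-TU (0.68, SE 0.18). The treated pups were all higher, at a low signal, with 25.7% of the antigenomic control readings below it. Prg4, the lubricant protein lubricin, differed by 1.48 (SE 0.54) and Upk1b, a uroplakin of mesothelium, by 1.005 (SE 0.46), both with overlap. The mean level of the 14 genes was 7.48 to 8.85 in NN-Veh and 7.73 to 8.93 in UN-RG-TU, and Krt8, Krt18 and Cdh1 of the same list were highest on the 2 cilia arrays. In UN-RG-Veh, 3 of the 14 were lower than in NN-Veh (1.99% of all clusters were). The number higher in UN-RG-TU was 2 without replicate 3 of NN-Veh and 2 without replicate 15 of UN-RG-TU.

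Isl1 and Wnt2b, developmental regulators, were higher. Both were named by a rule that asks for no overlap, so that the separation of the groups was fixed in advance. Isl1, a homeobox factor found in visceral fat progenitors, read 5.09, 4.80, 5.22 and 5.47 in NN-Veh and 6.07, 5.48, 6.68 and 6.11 in UN-RG-TU (log2 fold change 0.94, SE 0.26). Its signal was low, with 29.1% of the antigenomic control readings below it. Wnt2b, a ligand of the Wnt pathway, read 6.31, 6.54, 6.65 and 6.91 in NN-Veh and 6.97, 7.30, 8.11 and 7.49 in UN-RG-TU (0.86, SE 0.26). In both genes replicate 15 was the highest, as it was for Krt7 and Prg4. That likeness is from 1 array. The mean of the 14 mesothelial genes was 8.93 on replicate 15 and 8.87 on replicate 14, a cilia array, where Isl1 was the lowest of the treated pups. The part of mesothelial cells in Isl1 and Wnt2b was not tested.

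Mast cell proteases were higher too, as 3 of 8 mast cell genes were (2.1% of all clusters were), with a median log2 fold change of 0.31. Over the UN-RG-TU and NN-Veh arrays, 4 of the 8 had a mean at or below the antigenomic median. In UN-RG-Veh 0 of the 8 were past the thresholds, with a median of 0.29, and in NN-TU 0, with a median of 0.08. Cpa3, carboxypeptidase A3, read 8.79, 7.66, 8.98 and 8.76 in NN-Veh and 9.29, 9.37, 8.79 and 10.10 in UN-RG-TU (0.84, SE 0.32). Mcpt4, a chymase, differed by 0.88 (SE 0.36) and Tpsb2, a tryptase, by 0.55 (SE 0.21). The groups overlapped for all 3 genes. Kit, the growth factor receptor of mast cells, had a log2 fold change of 0.10, and the list had 0 genes past the thresholds without replicate 2 of NN-Veh, without the cilia arrays or by the methods' t-test, and 1 without replicate 1 of NN-Veh or without replicate 16 of UN-RG-TU.

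**Figure D3:**
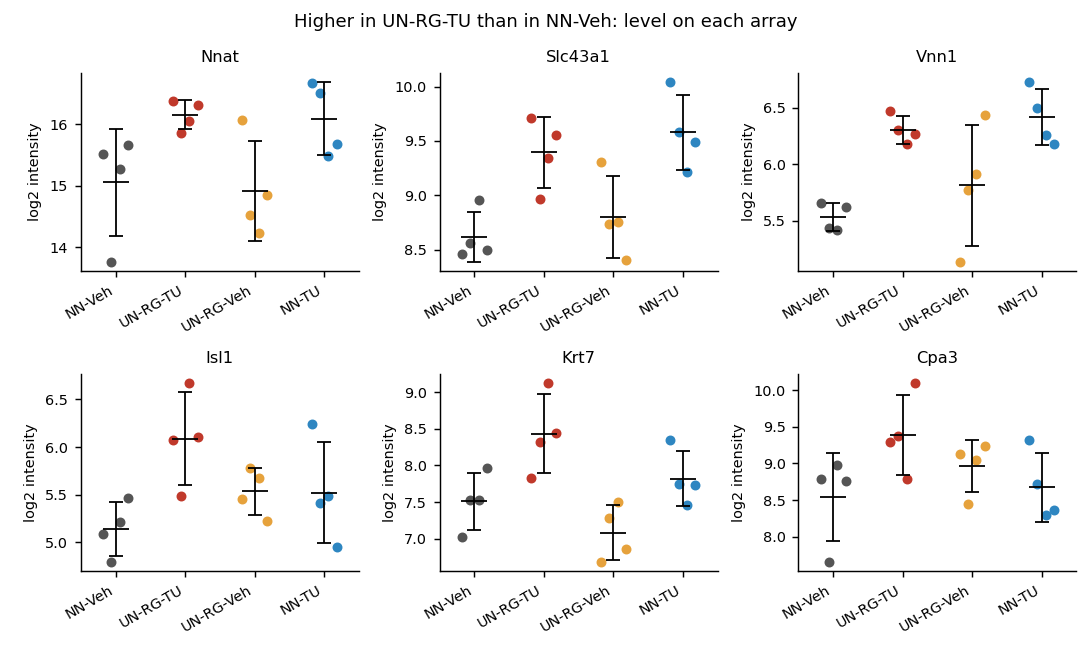
Log2 intensity of 6 genes that were higher in UN-RG-TU, on each of the 16 arrays (points), with the mean and SD of each group of 4 (bars). The UN-RG-TU and NN-Veh points are separate for Nnat, Slc43a1, Vnn1 and Isl1 and overlap for Krt7 and Cpa3. For Slc43a1, Vnn1 and Isl1 the rule that named them asks for no overlap, and Vnn1 and Isl1 have a low signal. The lowest NN-Veh point of Nnat and of Cpa3 is replicate 2.

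A gene was counted as not returned where UN-RG-Veh and UN-RG-TU both differed from NN-Veh in the same direction at the thresholds. In UN-RG-Veh, 547 clusters were higher than in NN-Veh and 441 lower. Of these, 62 were also higher in UN-RG-TU, 53 of them with a gene symbol, and 55 were also lower, 50 of them with a symbol. As both differences are taken from the same 4 NN-Veh arrays, an unusual NN-Veh array enters both, and no test of these counts was made. Without replicate 1 of NN-Veh, the counts were 137 higher and 90 lower, and with a term for the cilia arrays 108 and 115. Without replicate 2 of NN-Veh 88 were lower, and 127 were higher without its replicate 3 and 136 without replicate 14 of UN-RG-TU. In UN-RG-TU alone, 402 clusters were higher and 391 lower, and in UN-RG-Veh alone 484 and 383.

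Among the 8 largest genes not returned and lower were genes of matrix and macrophages. Tnfaip6, whose arrays are given above, had a log2 fold change of −1.88, beside −1.74 in UN-RG-Veh. For Mgl2 the value was −0.79 beside −0.96, and for Cd209d, a C-type lectin, −0.88 beside −0.92. Vcan, the matrix proteoglycan versican, which monocytes also express, read 11.21, 10.38, 10.77 and 10.70 in NN-Veh and 9.70, 9.87, 9.81 and 10.76 in UN-RG-TU. Replicate 16 lay among the NN-Veh pups and the other 3 below them, and the log2 fold change was −0.73 (SE 0.26), beside −1.25 in UN-RG-Veh. Tppp3, a tubulin-binding protein of some fat progenitors and of ciliated cells, had a value of −0.93 beside −0.99, and without the cilia arrays the first was −0.63 and not past. Gas7, an actin-binding protein, Tcp10c and 9130230L23Rik were the others, with log2 fold changes in UN-RG-TU of −0.83, −0.77 and −0.74.

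The 8 largest genes not returned and higher, ranked by the smaller of their 2 log2 fold changes, began with Ccn5. It encodes a matricellular protein that adipose precursor cells secrete, and read 9.30, 8.49, 9.31 and 8.88 in NN-Veh and 9.25, 10.10, 9.64 and 9.99 in UN-RG-TU (log2 fold change 0.75, SE 0.25), beside 0.86 in UN-RG-Veh. Replicate 13 alone of the treated pups lay within the NN-Veh range. Btc, the epidermal growth factor ligand betacellulin, differed by 0.73, beside 0.70 in UN-RG-Veh, but by 0.48 and not past the thresholds without replicate 2 of NN-Veh. Htr4, a serotonin receptor, was higher by 0.59 in both. The other 5 of the 8 largest, Gm815, Tmem150b, Uroc1 and the olfactory receptor genes Olfr1223 and Olfr109, had log2 fold changes of 0.61 to 0.78 in UN-RG-TU at low levels, with 13.5% to 33.9% of the antigenomic control readings below them.

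**Figure D4:**
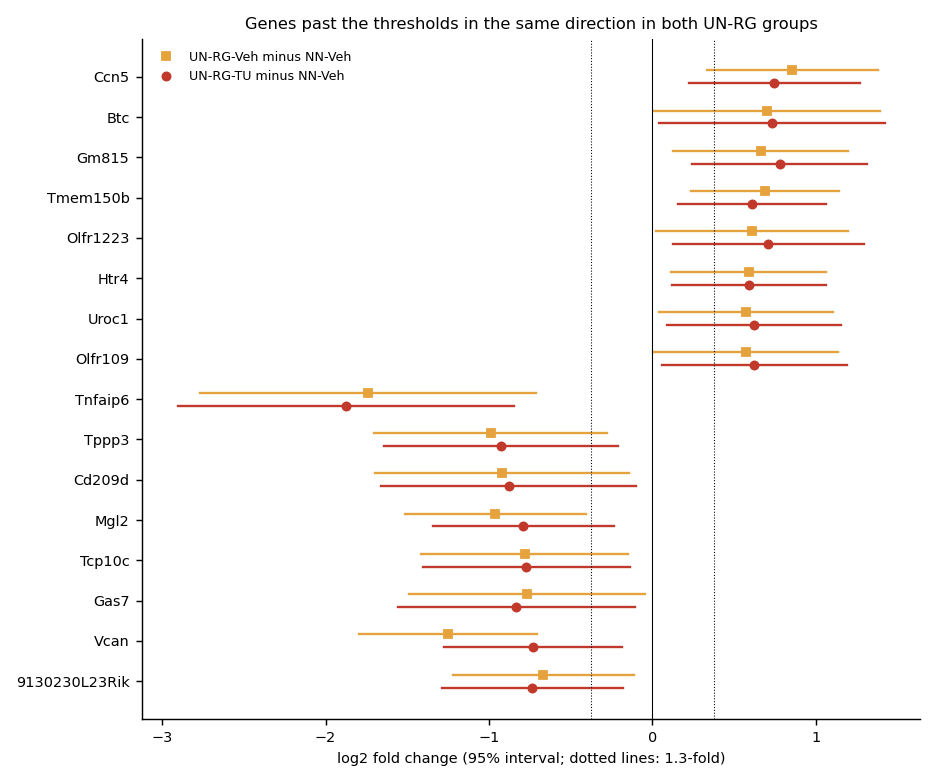
Log2 fold change from NN-Veh with its 95% interval for UN-RG-Veh (squares) and UN-RG-TU (circles), for the 8 largest genes not returned in each direction. Dotted lines mark a 1.3-fold change, and both differences use the same 4 NN-Veh arrays.

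Only 4 clusters had moved past the NN-Veh level, that is, differed from it at the thresholds in opposite directions in UN-RG-Veh and UN-RG-TU. Chil3, a chitinase-like protein of alternatively activated macrophages and monocytes, was the 1 cluster higher in UN-RG-Veh (log2 fold change 0.87) and lower in UN-RG-TU (−0.91, SE 0.38). It read 8.06, 7.84, 7.95 and 7.96 in NN-Veh and 6.58, 7.84, 6.10 and 7.66 in UN-RG-TU, so that replicate 14 was level with the lowest NN-Veh pup. Of the 3 clusters lower in UN-RG-Veh and higher in UN-RG-TU, 2 had a symbol. Slit3, a secreted guidance cue that also acts on sympathetic nerves in fat, read 12.22, 12.24, 12.45 and 12.30 in NN-Veh and 12.96, 12.78, 12.84 and 12.72 in UN-RG-TU (0.52, SE 0.23), and its groups were apart. Plagl1, an imprinted zinc finger factor that regulates fetal growth genes, differed by 0.89 (SE 0.39), with replicates 13 and 15 at 10.18 and 10.19 and replicates 14 and 16 within the NN-Veh range. Without replicate 13 of UN-RG-TU, none of the 3 named genes was past the thresholds.

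The 7 genes of interest of the study, which it chose on these arrays from its comparisons of UN-RG-Veh with NN-Veh and with UN-RG-TU, were set beside NN-Veh as a description. None of the 7 was past the thresholds in UN-RG-TU. Casp1, the protease that matures interleukin-1β, read 11.54, 11.28, 11.47 and 11.74 in NN-Veh and 11.67, 11.45, 11.59 and 11.91 in UN-RG-TU. The groups overlapped, and the log2 fold change was 0.15 (95% interval −0.15 to 0.44), against 1.10 in UN-RG-Veh. Agt, angiotensinogen, had a log2 fold change of 0.09 (−0.59 to 0.78), against −1.16 in UN-RG-Veh, and Ptgs2, the inducible cyclooxygenase, of 0.31 (−0.09 to 0.72), against −0.73.

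The acute phase genes of this set had wide intervals on both sides of 0. Saa3, a serum amyloid A of fat and macrophages, read 11.93, 11.31, 13.72 and 12.38 in NN-Veh and 9.49, 12.50, 10.97 and 12.78 in UN-RG-TU, a log2 fold change of −0.90 (−2.44 to 0.64) beside 2.39 in UN-RG-Veh. Replicates 13 and 15 were below every NN-Veh pup and the other two within their range. Ubd, an ubiquitin-like protein induced by interferon-γ, had values of −0.85 (−2.12 to 0.42) and 1.97, S100a8, a calcium-binding alarmin, of −0.71 (−1.64 to 0.23) and 1.79, and Hpx, the heme carrier hemopexin, of 0.15 (−0.55 to 0.86) and 1.54. Without the cilia arrays, Saa3 and S100a8 were past the thresholds in the lower direction, with log2 fold changes of −1.60 and −1.24.

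**Figure D5:**
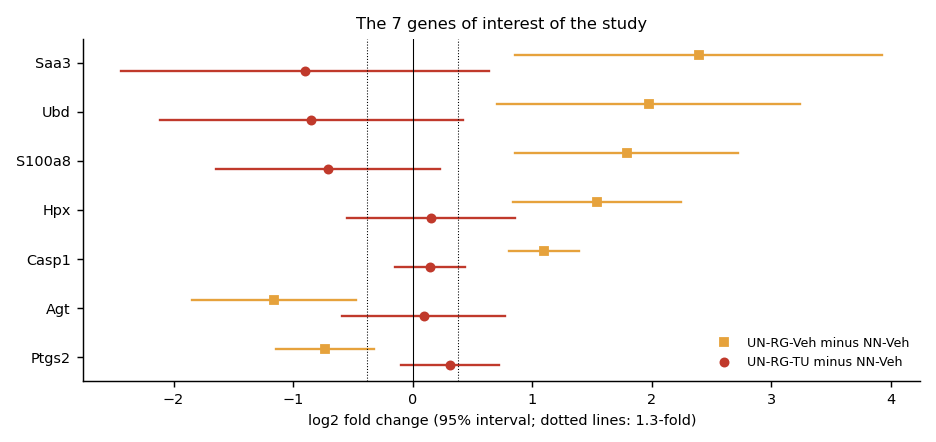
Log2 fold change from NN-Veh with its 95% interval for UN-RG-Veh (squares) and UN-RG-TU (circles), for the 7 genes of interest of the study. All 7 intervals of UN-RG-TU include 0.

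Over all clusters that were higher in UN-RG-Veh, the median log2 fold change from NN-Veh was 0.51 in that group against 0.20 with TU, and for those lower it was −0.53 against −0.17. These clusters were chosen by their values in UN-RG-Veh, so that a smaller median in any other group is partly fixed by the choice. The part of TU in it was not tested. A value near 0 in UN-RG-TU does not show that a gene had returned. The 95% interval lay wholly within a 1.3-fold difference from NN-Veh for 19 of the 547 higher clusters and for 26 of the 441 lower ones, so that for the remainder the 4 arrays per group leave a difference of that size possible.

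Genes of the interferon-γ response and of MHC class I were mostly not past the thresholds in UN-RG-TU, as most clusters were not. Among 19 interferon-γ response genes, 9 were higher in UN-RG-Veh (2.46% of all clusters were). In UN-RG-TU 0 were higher and 1 was lower (2.1% and 2.01% of all clusters were). The lower gene was Igtp, a GTPase that defends against parasites within cells (log2 fold change −0.55, SE 0.22). Gbp2, a guanylate-binding protein, had log2 fold changes of 0.53 with vehicle and −0.22 with TU (95% interval −0.55 to 0.11), and Psmb8, an immunoproteasome subunit, of 0.53 and −0.33 (−0.68 to 0.03). Of 13 genes of MHC class I, 7 were higher in UN-RG-Veh, against the same 2.46% of all clusters. In UN-RG-TU 0 of the class I genes were past the thresholds, with a median of 0.03. For H2-K1, a classical class I molecule, the values were 0.57 and −0.22 (−0.53 to 0.09), and for H2-D1 0.52 and 0.13 (−0.30 to 0.57). Set directly against UN-RG-Veh, UN-RG-TU had 12 of the 19 interferon-γ genes and 5 of the 13 class I genes lower and 0 higher, where 3.18% of all clusters were lower and 2.73% higher.

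Of 20 genes that make fatty acids and triglycerides, 6 were lower and 1 higher in UN-RG-Veh (1.99% and 2.46% of all clusters were). In UN-RG-TU 0 were past the thresholds (2.01% of all clusters were lower and 2.1% higher), and the median was −0.10. Elovl6, a fatty acid elongase, read 10.89, 12.05, 11.20 and 11.19 in NN-Veh and 11.32, 10.30, 11.56 and 10.69 in UN-RG-TU, a log2 fold change of −0.37 (95% interval −0.97 to 0.24) beside −1.61 in UN-RG-Veh. Fasn, fatty acid synthase, had values of −0.06 (−0.56 to 0.43) and −0.65, and Thrsp, which promotes lipogenesis, of 0.15 (−0.48 to 0.78) and −0.85. In these 3 genes replicates 13 and 15 were higher than replicates 14 and 16. Against UN-RG-Veh directly, 5 of the 20 genes were higher in UN-RG-TU and 0 lower (2.73% and 3.18% of all clusters were). Of 17 acute phase genes, 5 were higher in UN-RG-Veh (2.46% of all clusters were) and 0 were past the thresholds in UN-RG-TU.

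Genes of the endoplasmic reticulum, where TUDCA is used to act, were past the thresholds at close to the share of all clusters. Of 23 genes of the unfolded protein response and of chaperones, 1 was lower (4.35%) and 0 higher, where 2.01% of all clusters were lower and 2.1% higher. The median log2 fold change was −0.11, with 19 values below 0. The lower gene was Creld2, a secreted factor induced by that response, which differed by −0.55 (SE 0.20). Hspa5, the chaperone BiP, read 16.98, 17.26, 16.98 and 16.92 in NN-Veh and 16.66, 16.88, 16.68 and 16.72 in UN-RG-TU. The treated pups were all lower, but the log2 fold change of −0.30 (95% interval −0.61 to 0.01) was past neither threshold. Ddit3, the stress factor CHOP, had a log2 fold change of −0.06 (−0.65 to 0.52). Of 19 genes of bile acid receptors and transport, 13 were at or below the antigenomic median, and Slc51a and Abcc4 were the 2 past the thresholds, at 0.45 (SE 0.17) and −0.48 (SE 0.20).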

How the data were processed

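Total RNA of epididymal adipose tissue from 16 pups was hybridised by the authors to Clariom S mouse arrays, 1 array per pup, and processed with Transcriptome Analysis Console. The deposited values are normalised, linear intensities of transcript clusters, and the normalisation method and software version are not given in the sources used here. Of 22520 rows, 314 control rows were left out. The log2 was taken of the deposited intensities, with no filter on dim clusters and no pseudocount. Of 22206 clusters, 19572 carry 1 gene symbol in the platform annotation, for 19505 genes, and 2634 are unnamed here. Of genes with several clusters (55), lists use the brightest.

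A model of the 4 group means was made in R 4.3.3 with limma 3.58.1 (lmFit, eBayes, 12 residual degrees of freedom), with Benjamini-Hochberg adjustment over all clusters. The fit was tested on simulated data. The number of arrays, 4 per group, limits the precision. The labels give no batch, litter or scan date. One label names the NN-TU group differently (NN-RG-TU), and its title was followed.

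The comparison, the 55 gene lists (22 of them cell type markers) and the rules for genes were chosen with earlier results of these data known. Named genes are the 15 largest rises and falls without overlap, up to 4 changed members of each list with the smallest p, the 8 largest not returned or moved past in each direction and the genes the study names. Other list members, and Rara, were named after their values were seen. Alternatives were a dim filter, other scaling, other fits and each array left out, except those of NN-TU. Promoters are from RefSeq (GRCm38.p6). Figures were drawn with matplotlib 3.10.9.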

Additional observations from a re-analysis of the deposited data

Results flagged for a closer look

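In each group of 4 arrays, the levels of the genes named in the report and the mean levels of its marker lists were searched for 1 array far from the other 3. Of 232 such groups, 17 had one, where chance gives about 1 in 20. Transcripts of motile cilia stood apart on replicate 2 of NN-Veh, with a mean log2 level of 8.20 against 5.62 to 5.91 on the others, and on replicate 14 of UN-RG-TU, with 7.19 against 5.60 to 5.78. The epithelial genes Krt8 and Cdh1 were high on the same arrays. Krt8 read 11.26 on replicate 2 of NN-Veh, with 6.92 as the next value, and 9.76 on replicate 14 of UN-RG-TU, with 7.36 as the next. Cdh1 read 10.84 and 9.22 there, with 5.77 and 5.95 as the next. Plagl1 was low on replicate 2 of NN-Veh, at 7.64 against 8.96 to 9.06.

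Replicate 13 of UN-RG-TU was low for immune genes. Il1b read 6.02 there against 6.32 to 6.38, Gbp2 11.90 against 12.30 to 12.38, and H2-D1 12.99 against 13.81 to 13.90. The histone gene H3c8 was also low on it, at 8.57 against 9.40 to 9.55, and Gm815 was high, at 7.21 against 5.89 to 6.06. Replicate 16 of UN-RG-TU was high for Vcan, at 10.76 against 9.70 to 9.87, and for the mean of the resident macrophage markers, at 12.12 against 11.87 to 11.91. On replicate 15 of UN-RG-TU the mast cell markers averaged 6.87 against 7.13 to 7.17. On replicate 14 of the same group Olfr1223 read 4.12 against 5.40 to 5.59, and on replicate 1 of NN-Veh Ccl5 read 6.24 against 6.73 to 6.80.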

How the results depend on the processing

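No gene passed an adjusted p of 0.05 between UN-RG-TU and NN-Veh in limma under any of the 9 alternatives or with any array left out. None of the 90 named genes past the thresholds changed direction. Of the 90 named genes past the thresholds, 28 were past them under every alternative and 7 under all but the filter on dim clusters, which removed 17 of the 90 untested. Of the 90, 41 were lost by the methods' t-test, 30 without replicate 13 of UN-RG-TU, 28 without replicate 2 of NN-Veh, 28 without replicate 15 of UN-RG-TU and 20 without the cilia arrays. The causes were not tested.

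The 467 higher and 447 lower clusters became 235 and 258 by the methods' t-test and 810 and 758 without the cilia arrays, and with dim clusters left out, so that 12417 were tested, 185 were higher. With 1 array left out, they ranged from 325 to 1117 and from 274 to 740. The lower genes of the lists ranged from 5 to 15 for the cell cycle (11 with all arrays), 4 to 7 for chemokines (6), 3 to 9 for matrix (5) and 3 to 7 for resident macrophages (5), and the higher ones from 0 to 4 for mast cells (3) and 2 to 6 for mesothelium (4). By the methods' t-test, 3 chemokines, 3 matrix genes and 0 mast cell genes were past, and without the cilia arrays 9 matrix genes and 0 mast cell genes. Centring on the median and quantile normalisation each left 3 resident macrophage genes.

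Clusters not returned ranged from 46 to 137 higher (62) and 41 to 90 lower (55) with 1 array left out. They were 38 and 28 by the methods' t-test and 108 and 115 with a cilia term, and 20 were higher without dim clusters. Clusters moved past ranged from 0 to 12 higher (3) and 0 to 11 lower (1). These were 5 and 3 with 2 groups alone or a cilia term, 10 and 7 without the cilia arrays and 0 and 0 by the methods' t-test, and 3 were lower with median centring or quantile normalisation.

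No paired analysis was possible because the replicate numbers run from 1 to 16 and no 2 groups share one. With 4 arrays per group and 45.9% of clusters at or below the antigenomic median, small differences of dim genes could not be resolved.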

Other observations

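Genes of cholesterol synthesis had values below NN-Veh in UN-RG-TU, with 13 of 14 log2 fold changes below 0 and a median of −0.27. Only 2 were past the thresholds, both lower (2.01% of all clusters were). Cyp51, the lanosterol demethylase, read 12.14, 12.50, 12.12 and 12.21 in NN-Veh and 11.90, 11.80, 11.80 and 11.88 in UN-RG-TU, a small difference without overlap (log2 fold change −0.40, SE 0.16). Dhcr7, which makes cholesterol in the last step of one branch of the pathway, had a log2 fold change of −0.74 (SE 0.30) in UN-RG-TU and 0.48 (SE 0.30) in UN-RG-Veh, and its replicate 16 (10.61) lay within the NN-Veh range. In NN-TU, 4 of the 14 genes were lower than in NN-Veh (1.93% of all clusters were), among them Cyp51 (−0.43) and Dhcr7 (−0.78). The median there was −0.30.

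Several genes outside the lists were higher without overlap, which the rule that named them asks for. Akap7, which anchors protein kinase A, read 13.23, 12.85, 13.67 and 13.68 in NN-Veh and 14.18, 13.74, 14.12 and 13.99 in UN-RG-TU (log2 fold change 0.65, SE 0.21). Podn, a small leucine-rich proteoglycan of the matrix, had a log2 fold change of 0.64 (SE 0.23) against NN-Veh and of 0.94 (SE 0.23) against UN-RG-Veh. Scara5, a ferritin receptor, differed by 0.96 (SE 0.36), and replicate 2 of NN-Veh, a cilia array, was the lowest of the 8 at 7.10. These genes were also higher in NN-TU than in NN-Veh, Akap7 by 0.61, Podn by 0.62 and Scara5 by 1.18. Of 29 genes of oxidative phosphorylation, 14 thermogenic genes and 17 clock genes, 0 were past the thresholds in either direction, with medians of 0.04, 0.01 and 0.04.

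Further genes that the study names had values near NN-Veh with wide intervals. Fcgr4, an activating antibody receptor, had a log2 fold change of −0.02 (95% interval −0.62 to 0.58), Cck, cholecystokinin, of −0.22 (−1.19 to 0.76) and Mstn, myostatin, of −0.18 (−0.95 to 0.60), beside 0.96, 1.63 and 1.54 in UN-RG-Veh.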
